A study of Rattus norvegicus with 12 samples.

Results

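Kinesins are motor proteins that walk along microtubules or take them apart, and tubulins are the proteins from which microtubules are built. In rat heart cell cultures exposed to the plasticizer DEHP, a phthalate ester, transcripts of 55 kinesin and tubulin genes were measured out of 14324 genes. They were selected by symbol alone, as probe sets carrying a single symbol that begins with Kif and a digit, Kifc, Klc and a digit, Tuba, Tubb or Tubg. The 55 genes had 1 probe set each and comprised 10 mitotic kinesins, 18 transport kinesins with their light chains, 8 other kinesins, 8 alpha tubulins, 6 beta tubulins and 5 genes of gamma tubulin and its ring complex.

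Alpha and beta tubulin form the dimers of the microtubule wall, and gamma tubulin, held in a ring complex, seeds new microtubules. Mitotic kinesins build the spindle, move chromosomes and complete cell division, and their transcripts are known to peak late in the cell cycle. Transport kinesins carry organelles and vesicles, with light chains that help to bind the cargo. In heart muscle cells, which leave the cell cycle soon after birth, microtubules run around the nucleus and along the myofibrils.

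The cells were isolated enzymatically from hearts of Sprague-Dawley pups aged 2 days and grown for 3 days. They were then exposed for 3 days to DEHP at 1, 10 or 50 µg/ml in 0.1% DMSO, or to 0.1% DMSO alone as vehicle. Each dose and the vehicle had 3 arrays, 12 in all, described as biological replicates whose cells came from 1 litter. The labels call the cells cardiomyocytes and the tissue heart, and the preparation came from digested whole hearts, so other heart cells could be present. Each deposited value is a ratio to the median of that probe set over the 12 arrays, and it is given here as log2, so 0 is the middle of the 12 arrays. No source used here records the direction of the ratio, which was read as array over median. If it ran the other way, every difference here would change sign, and all higher and lower calls and shares would swap. The ratios keep no level, so abundances of different genes cannot be compared and the presence of cardiomyocyte markers cannot be checked from them. In bulk RNA, fewer cells of a type and less RNA per cell cannot be told apart.

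Groups were compared with limma over all 12 arrays, and a gene was called when its Benjamini-Hochberg adjusted p over all 14324 genes was under 0.05. The 10 µg/ml replicate 2 array had the widest values of its group. The standard deviation of its log2 values was 0.17, against 0.097 and 0.088 on the other 10 µg/ml arrays. The 50 µg/ml arrays had 0.166, 0.199 and 0.178. Replicate 3 correlated least with the other 10 µg/ml arrays (mean r of 0.056, against 0.123 for replicate 2 and 0.261 for replicate 1). Member counts at 10 µg/ml and differences from vehicle there are given with and without replicate 2. Differences between doses are given with it. Residual standard deviations of the 55 genes had a median of 0.079, beside 0.082 over all genes, and lay between 0.033 and 0.202.

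At 50 µg/ml, 17 of the 55 genes were called against vehicle, 6 higher and 11 lower. That is 30.9% of the members, against 17.6% of all genes called in this comparison. Of 10 mitotic kinesins, 8 were lower and 0 higher, against 8.84% of all genes called lower. With quantile normalization applied again the count was 5 of 10, against 7.92% of all genes. Of 14 alpha and beta tubulins, 4 were higher and 0 lower, against 8.75% of all genes called higher. Transport kinesins had 1 gene higher and 2 lower among 18, the other kinesins 1 higher among 8, and the gamma tubulin group 1 lower among 5. The median difference from vehicle was -0.31 for the mitotic kinesins, -0.01 for the transport kinesins and 0.06 for the 14 alpha and beta tubulins, beside 0.02 for all genes.

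**Figure D1:**
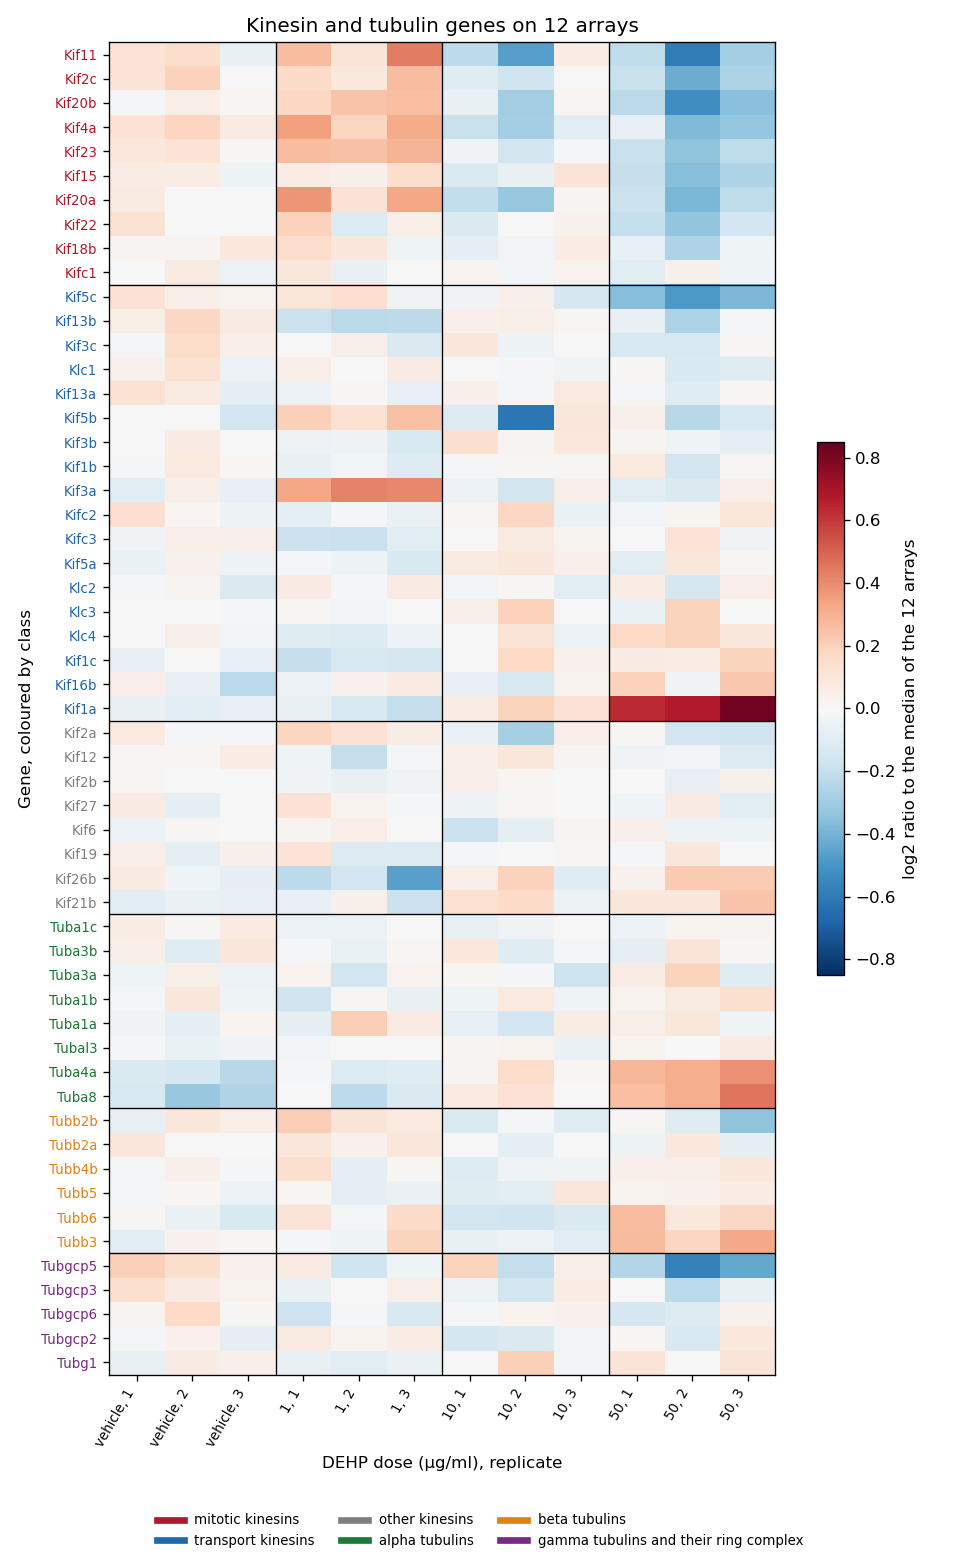
Log2 ratio of each of the 55 genes to its median over the 12 arrays, with genes in rows grouped by class and arrays in columns grouped by dose; colour gives the value. Most mitotic kinesins are low on the 50 µg/ml arrays and high on the 1 µg/ml arrays, whereas Kif1a, Tuba8 and Tuba4a are high on all 3 arrays at 50 µg/ml.

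**Figure D2:**
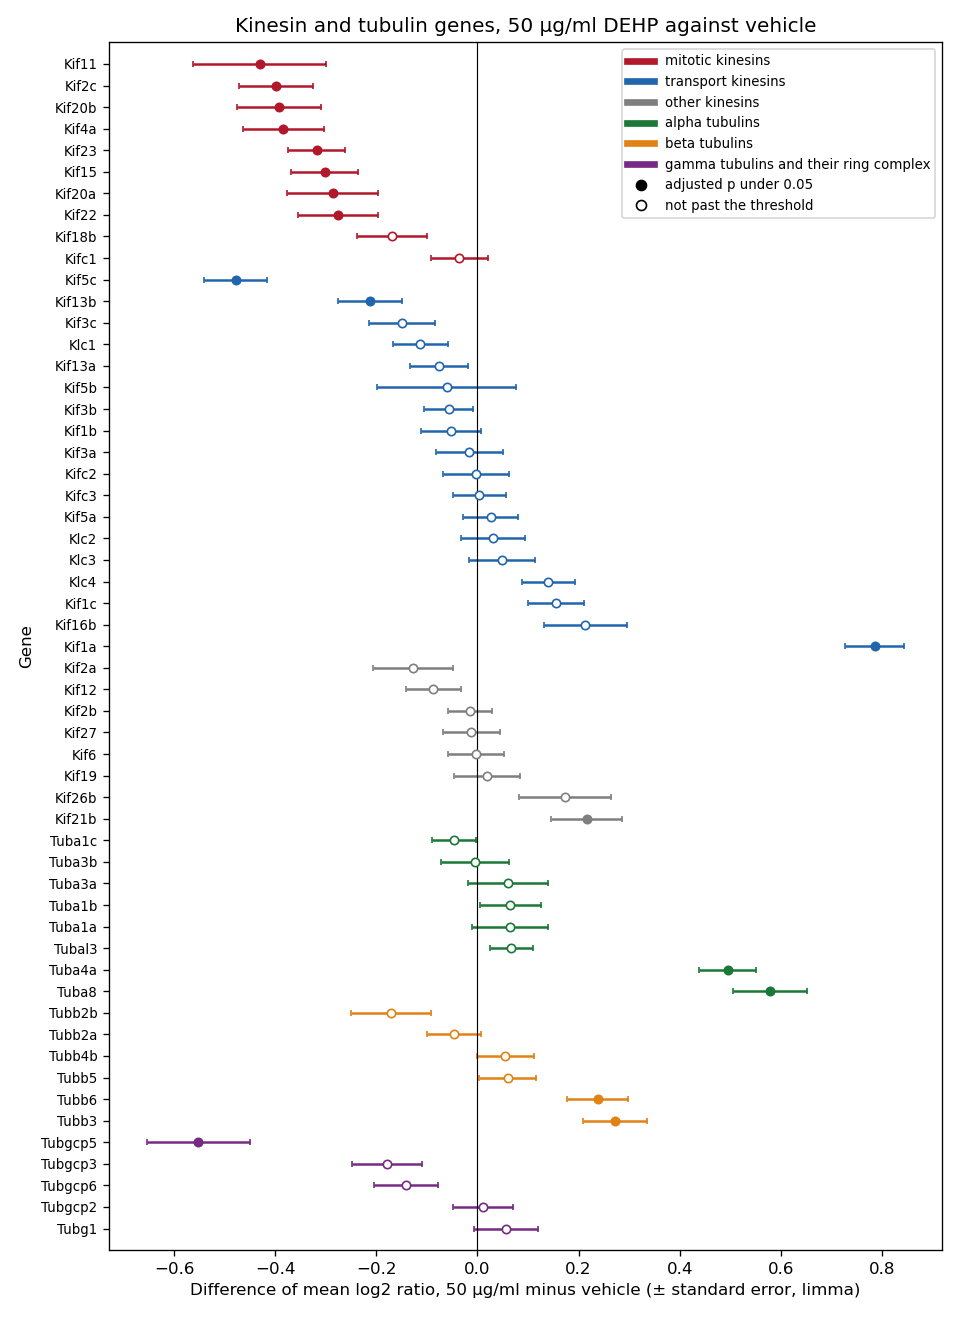
Difference of mean log2 ratio between 50 µg/ml DEHP and vehicle for each of the 55 genes (points) with its limma standard error (bars), coloured by class; filled points have an adjusted p under 0.05. All 10 mitotic kinesins lie below 0, and the largest positive difference is that of Kif1a (0.79).

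The mitotic kinesins that fell at 50 µg/ml act at different steps of division. Kif11 is the motor that pushes the spindle poles apart, and Kif15 holds the spindle bipolar. Kif2c takes tubulin off microtubule ends at the centromere. Kif4a and Kif22 bind chromosome arms. Kif20a, Kif20b and Kif23 work at the central spindle and the midbody in cytokinesis, Kif23 as a subunit of centralspindlin together with Racgap1.

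Promoter sequence of 4 mitotic kinesins and of Kif1a, the transport kinesin that moved most, is shown to set motif-bearing promoters beside one without. Kif23, Kif22 and Kif15 fell at 50 µg/ml, Kifc1 was not called, and the 4 were picked because they hold at least 1 of 2 short motifs that the Kif1a stretch lacks. Each line gives the 110 bases before the annotated transcription start, from RefSeq on GRCr8. Capitals mark 2 motifs, TTTGAA and CCAAT, on the printed strand or as the reverse complement. The first is a form of the cell cycle genes homology region, which the DREAM and MuvB complexes bind, and the second is bound by NF-Y. The windows are chr8:71320585-71320694 on the minus strand for Kif23, chr1:191080879-191080988 on the minus strand for Kif22, chr8:131479294-131479403 on the plus strand for Kif15, chr20:5000819-5000928 on the plus strand for Kifc1 and chr9:101094778-101094887 on the minus strand for Kif1a.
Kif23: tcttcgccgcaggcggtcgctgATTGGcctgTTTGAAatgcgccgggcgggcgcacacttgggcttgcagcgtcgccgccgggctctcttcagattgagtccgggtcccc
Kif22: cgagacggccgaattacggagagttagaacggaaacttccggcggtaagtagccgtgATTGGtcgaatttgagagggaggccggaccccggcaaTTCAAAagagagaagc
Kif15: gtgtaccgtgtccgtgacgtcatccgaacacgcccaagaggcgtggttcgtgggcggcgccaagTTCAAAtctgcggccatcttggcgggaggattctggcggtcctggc
Kifc1: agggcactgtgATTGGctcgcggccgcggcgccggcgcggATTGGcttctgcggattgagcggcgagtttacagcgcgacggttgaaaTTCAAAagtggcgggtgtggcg
Kif1a: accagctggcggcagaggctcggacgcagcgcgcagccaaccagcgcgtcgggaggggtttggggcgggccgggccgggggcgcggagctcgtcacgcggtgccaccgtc

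Over windows of 250 bases before to 50 bases after the start, TTTGAA on either strand was present in 6 of 10 mitotic kinesins (60%), against 19.4% of 27457 rat genes and 0 of 14 transport kinesins with a window. CCAAT was present in 7 of 10 (70%), against 39.6% of all genes. Both motifs were present in 5 of 10 mitotic kinesins, Kif4a, Kif20b, Kif22, Kif23 and Kifc1, against 7.96% of all genes. Kif2c fell and has neither motif in this window, nor has Kif18b, and Kifc1 has both and was not called. CCAAT was also common among the alpha tubulins (6 of 8) and beta tubulins (5 of 6), so it does not set the mitotic kinesins apart from the tubulins. A match describes letters only, and 7 of the 55 genes had no window in the table.

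Kif23 had log2 ratios of -0.19, -0.34 and -0.21 at 50 µg/ml, against 0.09, 0.12 and 0.01 in vehicle. All 3 arrays at 50 µg/ml lay below all vehicle arrays. The difference was -0.32 ± 0.06 (SE; limma adjusted p = 0.00156), which is 1.25-fold lower. Kif2c had -0.19, -0.42 and -0.27 at 50 µg/ml, against 0.12, 0.20 and 0.00 in vehicle, also without overlap, and fell by 0.40 ± 0.07 (adjusted p = 0.00216).

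Kif20b, a mitotic kinesin of the midbody, had -0.23, -0.53 and -0.36 at 50 µg/ml, against -0.02, 0.06 and 0.02 in vehicle. It fell by 0.39 ± 0.08 (adjusted p = 0.00552). Kif4a had -0.07, -0.37 and -0.33 at 50 µg/ml, against 0.12, 0.18 and 0.07 in vehicle, and fell by 0.38 ± 0.08 (adjusted p = 0.00484). The groups did not overlap for either gene, although the Kif4a value of -0.07 stands closer to vehicle than its partners. Kif15 had -0.20, -0.36 and -0.26 at 50 µg/ml, against 0.06, 0.07 and -0.04 in vehicle, and fell by 0.30 ± 0.07 (adjusted p = 0.00678).

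The calls for 3 mitotic kinesins were less secure. Kif11 showed the largest mitotic difference, -0.43, but also the largest spread of the class, with an SE of 0.13 and an adjusted p of 0.0405. Its values were -0.21, -0.59 and -0.29 at 50 µg/ml, against 0.11, 0.15 and -0.06 in vehicle. Kif20a fell by 0.29 ± 0.09 (adjusted p = 0.0460) and Kif22 by 0.28 ± 0.08 (adjusted p = 0.0306). With single arrays left out in turn, the call was kept in 6 of 12 omissions for Kif11, 3 of 12 for Kif20a and 7 of 12 for Kif22. The other 5 mitotic kinesins named above were called in all 12.

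The members not called were Kif18b, a motor that shortens astral microtubules, with a difference of -0.17 (adjusted p = 0.117), and Kifc1, a minus-end motor that bundles spindle microtubules, with -0.04 (adjusted p = 0.736). The 95% interval for Kifc1 ran from -0.157 to 0.085, so it excludes a fall of the probe set signal as large as that of Kif23. Signal over background is not kept, so the interval does not bound the change of the transcript itself. Kif18b did not overlap between the groups, as was the case for 9 of the 10 mitotic kinesins in the lower direction, against 16.5% of all genes.

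The arrays were not equal within the group. For 9 of the 10 mitotic kinesins the lowest of the 12 values was on the 50 µg/ml replicate 2 array. That array had the widest log2 values of the 12 (standard deviation 0.199), and the share over all genes was not counted. Without that array 5 mitotic kinesins were called lower, beside 6.11% of all genes (8.84% with all arrays). The same number, 5, was called without vehicle replicate 1 (5.96% of all genes lower) or without vehicle replicate 2 (6.26%). Medians over the 10 genes were -0.19, -0.37 and -0.24 on the 50 µg/ml arrays, against 0.08, 0.07 and 0.01 on the vehicle arrays.

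**Figure D3:**
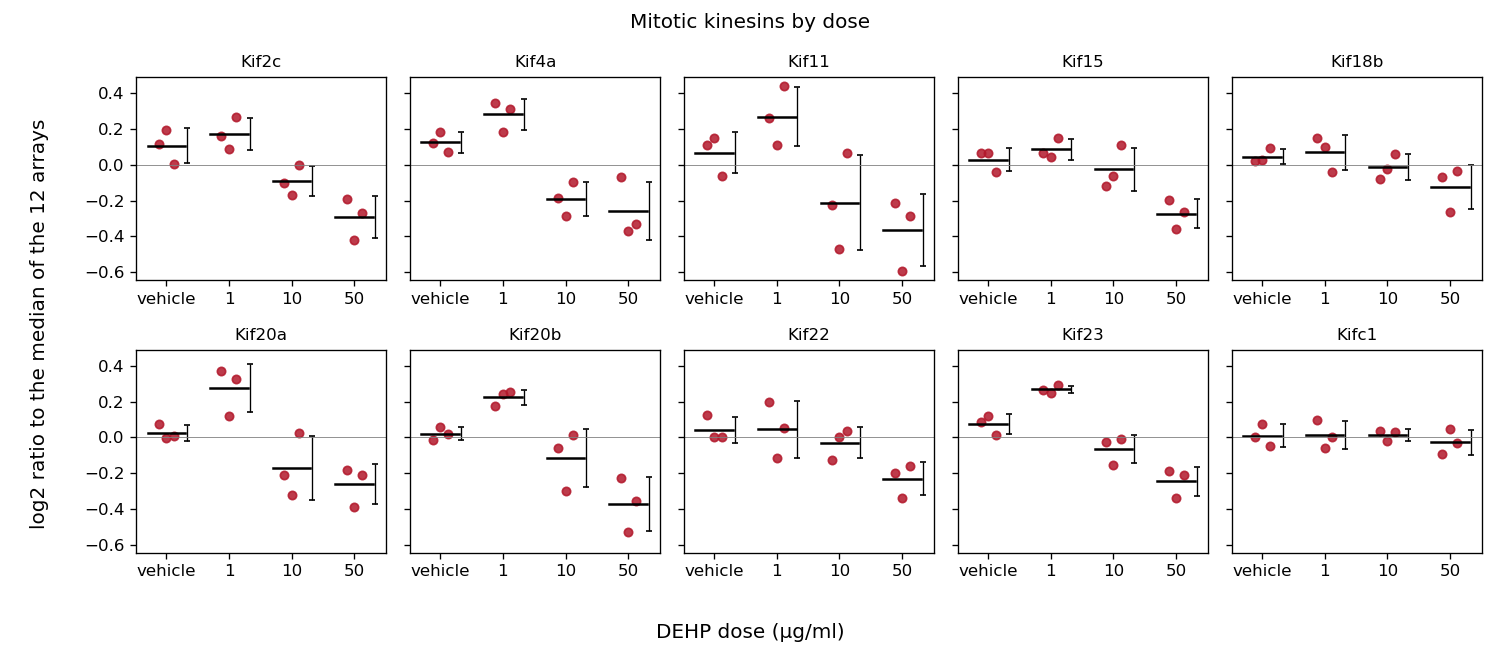
Log2 ratio of each mitotic kinesin (panels) on the 3 arrays (points) at each dose, with the group mean (horizontal line) and SD (bar). For 8 of the 10 genes the 50 µg/ml group is called lower than vehicle, and Kifc1 stays near 0 at every dose.

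Along the doses the mitotic kinesins followed no single slope. Against vehicle, the median difference over the 10 genes was 0.11 at 1 µg/ml, -0.14 at 10 µg/ml (-0.09 without 10 µg/ml replicate 2) and -0.31 at 50 µg/ml. At 1 µg/ml limma called 0 of the 10, and the differences lay between 0.00 and 0.25. An unadjusted limma p under 0.05 was reached by 3 of the 10, beside 2889 of 14324 over all genes. Kif23 had the smallest limma p of the class at 1 µg/ml and so is its clearest case, not a typical one. It had 0.09, 0.12 and 0.01 in vehicle, 0.26, 0.25 and 0.29 at 1 µg/ml, -0.03, -0.16 and -0.01 at 10 µg/ml, and -0.19, -0.34 and -0.21 at 50 µg/ml. Kif15, Kif18b, Kif22 and Kifc1 differed from vehicle by only 0.06, 0.02, 0.00 and 0.00 at 1 µg/ml. The highest of the 12 arrays was 1 µg/ml replicate 1 for 5 of the 10 genes and 1 µg/ml replicate 3 for the other 5. The share over all genes was not counted here either.

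Spindle and cytokinesis genes other than kinesins moved the same way. Of 18 measured, 14 were lower and 0 higher at 50 µg/ml against vehicle, beside 8.84% of all genes lower, with a median of -0.32. The 4 with the smallest p were Plk1, a kinase that starts many mitotic events (-0.48 ± 0.05, adjusted p = 4.58e-05), Aurka, a spindle pole kinase (-0.54 ± 0.06, adjusted p = 5.05e-05), Racgap1 (-0.28 ± 0.05, adjusted p = 0.00136) and Prc1, which bundles central spindle microtubules and binds Kif4a (-0.34 ± 0.06, adjusted p = 0.00192). Aurka had -0.33, -0.43 and -0.41 at 50 µg/ml, against 0.15, 0.18 and 0.11 in vehicle. At 1 µg/ml against vehicle, 1 of the 18 was called, beside 2.51% of all genes higher: Tpx2, which activates Aurka on the spindle, was higher by 0.31.

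Markers of other heart cells changed on the same arrays. Of 18 macrophage markers, 17 were lower at 50 µg/ml than in vehicle, with a median difference of -1.10. Their array medians were -0.96, -0.87 and -0.97 at 50 µg/ml, against 0.18, 0.26 and 0.16 in vehicle. Of 12 cardiomyocyte markers 7 were higher and 1 lower, of 9 endothelial markers 4 were higher and 1 lower, of 12 fibroblast markers 1 was higher and 3 lower, and of 8 smooth muscle and pericyte markers 2 were higher and 4 lower. Over all genes 8.75% were called higher and 8.84% lower. The 1 higher fibroblast marker and the 1 lower cardiomyocyte and 1 lower endothelial marker are shares near these. The part of these cell types in the fall of the mitotic kinesins, and in the other differences at 50 µg/ml below, was not tested. At 1 µg/ml against vehicle, 3 of 18 macrophage and 3 of 9 endothelial markers were lower, beside 1.74% of all genes.

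**Figure D4:**
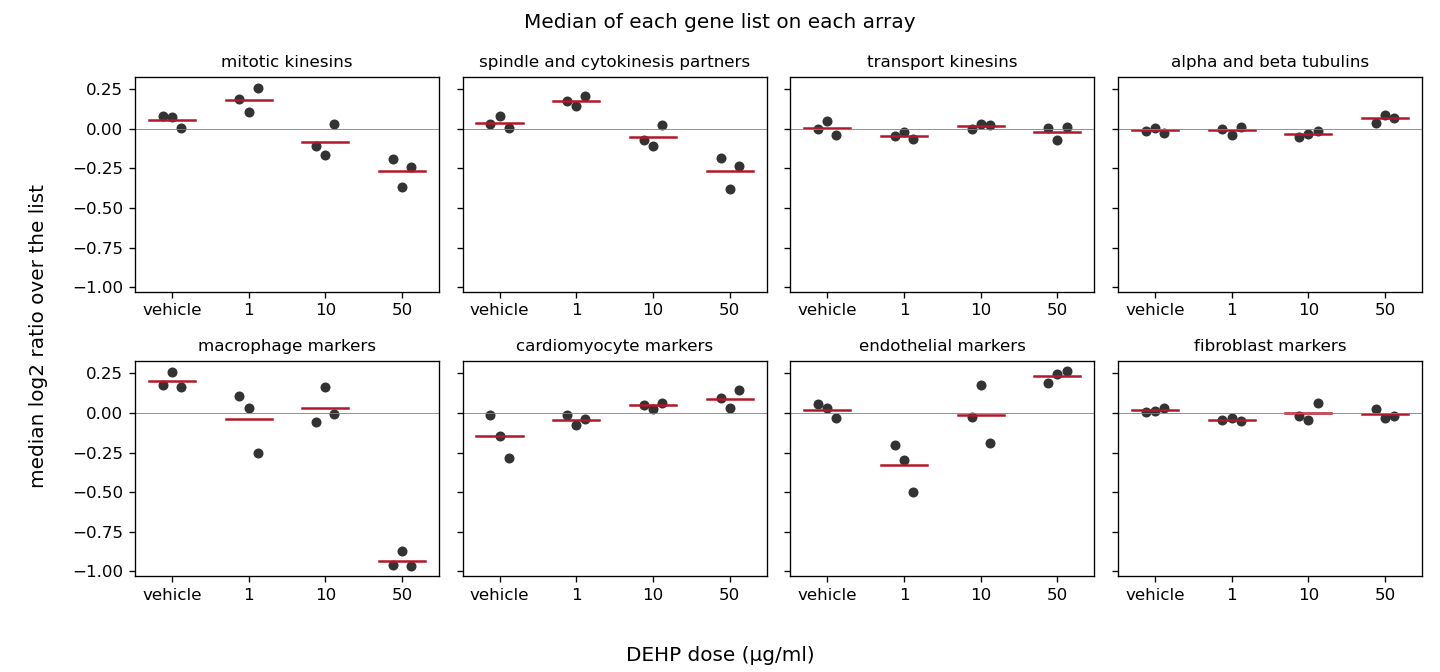
Median log2 ratio of each gene list (panels) on each of the 12 arrays (points), by DEHP dose, with the mean of the 3 arrays (line). Mitotic kinesins and spindle partners are low at 50 µg/ml, and macrophage markers lie between -0.97 and -0.87 there, against 0.16 to 0.26 in vehicle.

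Transport kinesins gave the largest single difference. Kif1a, a motor for synaptic vesicle precursors and dense-core vesicles in neurons, had log2 ratios of 0.64, 0.67 and 0.82 at 50 µg/ml, against -0.07, -0.09 and -0.07 in vehicle. The difference was 0.79 ± 0.06, which is 1.72-fold higher (adjusted p = 1.64e-06). In dose order its values were -0.07, -0.09 and -0.07 in vehicle, -0.06, -0.13 and -0.20 at 1 µg/ml, 0.06, 0.19 and 0.12 at 10 µg/ml, and 0.64, 0.67 and 0.82 at 50 µg/ml. All arrays at 10 µg/ml lay above all vehicle arrays, yet the difference of 0.20 was not called (adjusted p = 0.592).

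Kif5c, a heavy chain of conventional kinesin that is enriched in neurons, moved the opposite way. It had -0.36, -0.49 and -0.38 at 50 µg/ml, against 0.12, 0.06 and 0.03 in vehicle, and fell by 0.48 ± 0.06 (adjusted p = 0.000171). The other heavy chains were not called: Kif5a differed by 0.03 (adjusted p = 0.815) and the widely expressed Kif5b by -0.06 (adjusted p = 0.824). Kif5b had the largest residual spread of all 55 genes, with -0.12, -0.61 and 0.10 at 10 µg/ml, and its 95% interval at 50 µg/ml, -0.358 to 0.237, leaves room for a change in either direction.

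Kif13b, which carries membrane cargo through the scaffold protein Dlg, had -0.06, -0.27 and -0.02 at 50 µg/ml, against 0.05, 0.18 and 0.07 in vehicle. It fell by 0.21 ± 0.06 (adjusted p = 0.0336), with replicate 2 at 50 µg/ml set apart from its partners. Without that array the difference was -0.14 and no longer called. Kif16b, an endosome motor, differed by 0.21 (adjusted p = 0.0988), Kif1c by 0.16 (adjusted p = 0.0749) and the light chain Klc4 by 0.14 (adjusted p = 0.0836), and none of these was called.

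Among the 8 other kinesins, Kif21b, a neuronal motor that also limits microtubule growth, was called at 50 µg/ml. Its values were 0.09, 0.10 and 0.24, against -0.09, -0.06 and -0.07 in vehicle. The difference of 0.22 ± 0.07 was just past the threshold (adjusted p = 0.0497), and the call was kept in 4 of 12 omissions of an array. Kif26b, an atypical kinesin, differed by 0.17 (adjusted p = 0.233), and Kif2a, a microtubule depolymerase related to Kif2c, by -0.13 (adjusted p = 0.329).

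Among the alpha tubulins, Tuba8 and Tuba4a were higher at 50 µg/ml. Tuba8, an isotype known from heart, skeletal muscle and testis, had 0.26, 0.31 and 0.46, against -0.13, -0.32 and -0.26 in vehicle. The difference was 0.58 ± 0.07, or 1.49-fold (adjusted p = 0.000137). Tuba4a, an isotype whose gene does not encode the C-terminal tyrosine, had 0.28, 0.31 and 0.39, against -0.12, -0.15 and -0.23 in vehicle, a difference of 0.50 ± 0.06 (adjusted p = 5.72e-05). In neither gene did the groups overlap.

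The widely expressed alpha tubulins were not called. Tuba1a differed by 0.06 (95% interval -0.099 to 0.228), Tuba1b by 0.06 (-0.066 to 0.195) and Tuba1c by -0.05 (-0.140 to 0.048). These intervals exclude differences of the probe set signal of the size seen for Tuba8 and Tuba4a. Tubal3, the third largest of the class, differed by 0.07 (adjusted p = 0.337). Tuba1a, Tuba1b and Tuba1c have near-identical coding sequences, as do Tuba3a and Tuba3b and, among beta tubulins, Tubb2a and Tubb2b, so their probe sets may not separate them fully.

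Among the beta tubulins, Tubb3 and Tubb6 were higher. Tubb3, best known as a neuronal isotype, had 0.27, 0.18 and 0.32 at 50 µg/ml, against -0.09, 0.04 and 0.01 in vehicle, a difference of 0.27 ± 0.06 (adjusted p = 0.0097). Tubb6, an isotype known from regenerating muscle, had 0.26, 0.09 and 0.18, against 0.01, -0.06 and -0.13 in vehicle, a difference of 0.24 ± 0.06 (adjusted p = 0.0148). Tubb2b differed by -0.17 (adjusted p = 0.180), and Tubb5, the main isotype in most dividing cells, by 0.06 (adjusted p = 0.540). The Tubb3 call was lost without vehicle replicate 1, and that of Tubb6 without vehicle replicate 3 or without 50 µg/ml replicate 1.

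Because Kif1a, Kif5c, Kif21b and Tubb3 are known from neurons, 17 measured neuronal and 6 Schwann cell markers were counted, in lists drawn up after the member values had been seen. At 50 µg/ml against vehicle 2 of the 17 neuronal markers were higher, Gap43 by 0.29 and Uchl1 by 0.25, a share near the 8.75% of all genes called higher, and the median was 0.06. Of the 6 Schwann cell markers 0 were called by limma and 0 had an unadjusted p under 0.05. Over all genes 4172 of 14324 had an unadjusted p under 0.05, and a list of 6 is too short to read from. The neuronal array medians were 0.00, 0.06 and 0.02 at 50 µg/ml, against -0.04, -0.01 and 0.00 in vehicle, and their part in the Kif1a and Tubb3 differences was not tested further.

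In the gamma tubulin group, Tubgcp5, a subunit of the ring complex, had -0.25, -0.58 and -0.44 at 50 µg/ml, against 0.20, 0.15 and 0.04 in vehicle. It fell by 0.55 ± 0.10 (adjusted p = 0.00233), the largest fall among the 55 genes. Its partners Tubgcp3 and Tubgcp6 differed by -0.18 (adjusted p = 0.101) and -0.14 (adjusted p = 0.160), and gamma tubulin itself, Tubg1, by 0.06 (95% interval -0.080 to 0.194). At 10 µg/ml the Tubgcp5 values spread widely, at 0.19, -0.20 and 0.05.

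**Figure D5:**
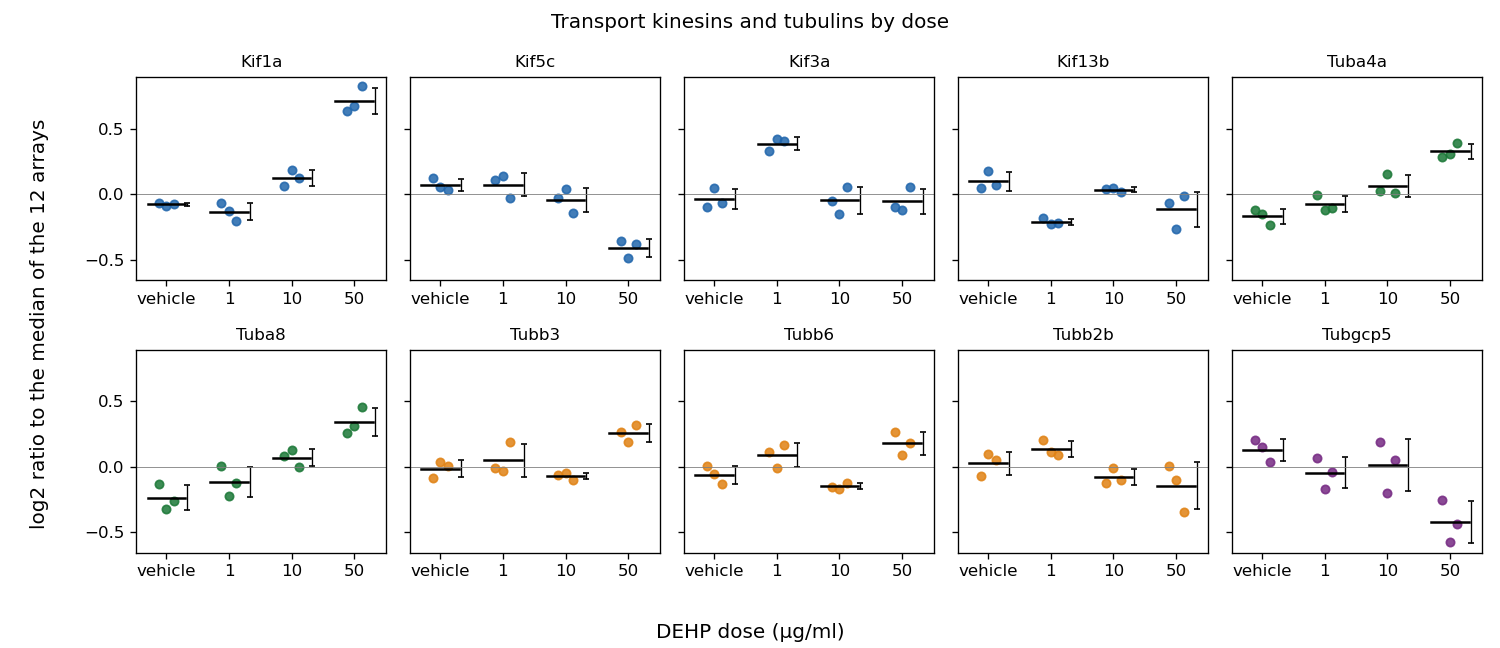
Log2 ratio of members outside the mitotic class (panels) on the 3 arrays (points) at each dose, with the group mean (horizontal line) and SD (bar). Kif1a, Tuba8 and Tuba4a are highest at 50 µg/ml, Kif5c and Tubgcp5 are lowest there, and Kif3a is highest at 1 µg/ml.

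At 1 µg/ml against vehicle, 2 of the 55 genes were called, 1 higher and 1 lower, against 4.24% of all genes (2.51% higher and 1.74% lower). Kif3a, a motor subunit of the heterotrimeric kinesin that builds cilia, had 0.33, 0.42 and 0.41 at 1 µg/ml, against -0.09, 0.05 and -0.07 in vehicle, a difference of 0.42 ± 0.07 (adjusted p = 0.00596). Its 50 µg/ml arrays had -0.10, -0.12 and 0.06, a difference from vehicle of -0.02 (adjusted p = 0.907). Its partner Kif3b was not called. Kif13b had -0.18, -0.23 and -0.22 at 1 µg/ml, against 0.05, 0.18 and 0.07 in vehicle, a difference of -0.31 ± 0.06 (adjusted p = 0.0190), and lost the call when any of the 6 compared arrays was left out.

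At 10 µg/ml against vehicle limma called 0 of the 55 genes and 0% of all genes. Unadjusted p was under 0.05 for 7 of the 55 and for 899 of 14324. The 7 were Tuba8 (0.31), Tuba4a (0.23), Kif1a (0.20), Kif21b (0.15), Kif4a (-0.32), Kif2c (-0.20) and Kif23 (-0.14), with adjusted p between 0.424 and 0.786. Without 10 µg/ml replicate 2 the count called was also 0, and the differences were 0.28 for Tuba8, 0.18 for Tuba4a, 0.17 for Kif1a, 0.11 for Kif21b, -0.27 for Kif4a, -0.16 for Kif2c and -0.09 for Kif23. At 50 µg/ml, against the same vehicle arrays, the differences were 0.58 for Tuba8, 0.50 for Tuba4a, 0.79 for Kif1a, 0.22 for Kif21b, -0.38 for Kif4a, -0.40 for Kif2c and -0.32 for Kif23.

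The doses were also set against each other, with the spread still estimated from all 12 arrays, vehicle included. At 50 against 10 µg/ml 9 of the 55 genes were called, against 14.6% of all genes. Higher were Kif1a, Tubb3, Tubb6, Tuba8 and Tuba4a (5 genes, against 7.75% of all genes), and lower were Tubgcp5, Kif5c, Kif15 and Kif23 (4 genes, against 6.85%). The count was 11 without 10 µg/ml replicate 2 (17.7% of all genes) and 6 with only these 2 groups in the fit (9.16% of all genes). Tubb6 had 0.26, 0.09 and 0.18 at 50 µg/ml, against -0.15, -0.17 and -0.12 at 10 µg/ml, and Tubb3 had 0.27, 0.18 and 0.32, against -0.07, -0.05 and -0.10. Both tubulins differed by 0.33 with SE 0.06, with adjusted p of 0.00254 for Tubb6 and 0.00364 for Tubb3.

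At 50 against 1 µg/ml 21 genes were called, 9 higher and 12 lower, against 24.9% of all genes (11.5% higher and 13.4% lower). This comparison uses the same 50 µg/ml arrays as that with vehicle. Of the mitotic kinesins 8 were lower, with a class median of -0.49 and the largest difference for Kif11 (-0.63). Among genes that had not been called against vehicle at 50 µg/ml, Kif26b (0.44), Kif1c (0.27), Klc4 (0.24) and Kifc3 (0.18) were higher and Kif3a (-0.44) and Tubb2b (-0.28) lower.

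At 10 against 1 µg/ml 13 genes were called, 5 higher and 8 lower, against 14.0% of all genes (4.77% higher and 9.20% lower). The lower ones included 6 mitotic kinesins, Kif11 (-0.48), Kif4a (-0.47), Kif20a (-0.44), Kif20b (-0.34), Kif23 (-0.33) and Kif2c (-0.26). All 6 were among the 8 lower at 50 µg/ml against vehicle, whose group means share no array with these. With only the 10 and 1 µg/ml groups in the fit, 5 of the 55 genes (4.87% of all genes) and 2 mitotic kinesins among them were called. The other lower genes were Kif3a (-0.43) and Tubb6 (-0.24), and Kif26b (0.33), Kif1a (0.26), Kif13b (0.25), Kif1c (0.23) and Kifc3 (0.19) were higher. Without 10 µg/ml replicate 2, the array with the widest values of its group, 4 genes were called, Kif4a, Kif20a, Kif23 and Kif3a, all lower, against 6.14% of all genes. The count was 8 without 10 µg/ml replicate 1 (10.8% of all genes), 6 without 1 µg/ml replicate 1 (6.59%) and 5 without 1 µg/ml replicate 3 (5.72%).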

How the data were processed

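RNA of 12 cultures (5 µg total RNA each) was hybridised to Affymetrix arrays, in 4 groups of 3. All cells came from 1 litter, so p-values measure the spread between its cultures. The deposited value of each of 27342 probe sets is a ratio. The submitters' processing notes name RMA, with no version. In the deposited file the midpoint of the 6th and 7th value of each probe set is 0 in log2 within 1e-06, so the ratios are relative to the probe set's median over 12 arrays. Levels, and so signal over background, are not kept, and the number of arrays limits the precision.

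Ratios were converted to log2. Symbols came from the platform annotation: 15097 probe sets had 1 symbol, 323 several and 11922 none. Probe sets of a gene were averaged (499 genes), which gave 14324 genes; all 55 members matched GRCr8 by Entrez ID. limma 3.58.1 in R 4.3.3 (lmFit, eBayes) fitted 4 group means over 12 arrays with 8 residual degrees of freedom, for 6 comparisons. p-values were adjusted (Benjamini-Hochberg) over all genes. The procedure was tested on simulated data. An exact permutation test of 3 against 3 cannot go below p = 0.1, so none was used.

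The genes named are those called in any comparison, the 3 largest differences of each class at 50 µg/ml, and the 4 smallest p among called genes of each partner list; a few more are named for contrast, picked once their values were known. The members and lists were chosen with earlier results of these data known. Promoter sequences are RefSeq's on GRCr8. Alternatives were 2 normalizations, robust moderation, array weights, 2 groups only, a replicate block, a test per probe set and the omission of each array.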

Additional observations from a re-analysis of the deposited data

How the results depend on the processing

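Each of 12 arrays was left out in turn, and the range of members called is given with that of all genes. At 50 µg/ml against vehicle it was 12 to 19 (17 with all arrays), beside 12.1% to 22.0% of all genes. At 10 µg/ml against vehicle it was 0 and 0 (0% to 0.00698%), and at 1 µg/ml against vehicle 1 to 3 (2; 1.23% to 8.95%). Between doses it was 6 to 11 at 50 against 10 µg/ml (9), beside 10.7% to 17.7%. At 50 against 1 µg/ml it was 15 to 24 (21), beside 17.0% to 30.5%, and at 10 against 1 µg/ml 4 to 16 (13), beside 5.72% to 18.8%. With array weights, 2 members were called at 10 µg/ml against vehicle (Kif4a lower and Tuba8 higher; 0.628% of all genes), 7 at 1 µg/ml against vehicle (12.7% of members, 12.4% of all genes) and 20 at 10 against 1 µg/ml (36.4% of members, 22.0% of all genes). With only the 2 groups compared in the fit, 7 were called at 1 µg/ml against vehicle (11.6% of all genes) and 5 at 10 against 1 µg/ml (4.87%). With quantile normalization applied again, 5 were called at 50 against 10 µg/ml (9.78% of all genes). At 50 µg/ml against vehicle 5 mitotic kinesins rather than 8 were then lower, beside 7.92% of all genes rather than 8.84%. The cause was not tested. Over the 27 named members, 6 comparisons and 19 alternatives, 2888 of 3078 values stayed on their side of the threshold. Another 154 lost and 36 gained a call, and 0 values called in the main or the alternative fit changed direction. Changes of sign among uncalled values were not counted. Of the 17 members called at 50 µg/ml, 10 kept the call under all 19 alternatives: Kif1a, Kif5c, Kif2c, Kif4a, Kif15, Kif20b, Kif23, Tuba4a, Tuba8 and Tubgcp5.

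Across groups, 6 of 18 pairs of arrays with the same replicate number had correlated deviations over 0.1 (range -0.233 to 0.431). The largest correlation was between the replicate 2 arrays at 50 and 10 µg/ml. Each of these arrays had the lowest mitotic kinesin median of its group (-0.37 and -0.16). With so few arrays per group, the correlations cannot decide whether the replicate numbers pair the samples. With the replicate number as a block, 15, 0, 2, 9, 23 and 14 members were called in the 6 comparisons, in the order given above. The shares of all genes called were 17.7%, 0%, 5.18%, 14.6%, 25.2% and 15.0%, in the same order.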

Other observations

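Over all genes 8.75% were called higher and 8.84% lower at 50 µg/ml against vehicle, and several of the lists of other microtubule genes below, which were not compared by a test, had shares near these. Of 19 microtubule-associated and plus-end proteins 3 were higher and 0 lower: Map1b by 0.46 ± 0.08, Dclk1 by 0.40 ± 0.05 and Map2 by 0.21 ± 0.05 (SE; limma adjusted p of 0.0011, 0.000171 and 0.0107). All 3 bind and stabilise the microtubule wall. Map1b had 0.40, 0.28 and 0.46 at 50 µg/ml, against -0.14, 0.02 and -0.10 in vehicle. Dclk1 had 0.43, 0.30 and 0.46 at 50 µg/ml, against -0.04, 0.02 and 0.03 in vehicle, while at 1 µg/ml it was 0.21 lower than vehicle on the log2 scale, with -0.24, -0.18 and -0.21.

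Of 21 tubulin folding and modifying enzymes 3 were higher and 2 lower. The folding cofactor Tbcb was higher by 0.36 and the tubulin deacetylase Sirt2 by 0.22, whereas Agtpbp1, which trims glutamates from tubulin tails, fell by 0.43 and Tbcel, a relative of the folding cofactors, by 0.26. Of 9 stathmins and severing enzymes 1 was lower, Fign (-0.25), and of 20 genes of dynein, the motor that walks opposite to most kinesins, and dynactin 1 was higher, the light chain Dynll2 (0.38); neither share stands out from that of all genes. Of 12 kinesin cargo adaptors 2 were higher, Trak1, which links kinesin to mitochondria (0.32), and Kidins220 (0.25).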
